A study of Mus musculus with 51 samples.

Results

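Prdm9 and 6 genes whose proteins bind PRDM9 or read the histone marks it leaves were followed in peak lists from ChIP-Seq of sorted mouse spermatocyte nuclei. The 7 genes, Prdm9, Hells, Zcwpw1, Cxxc1, Ewsr1, Ehmt2 and Cdyl, were chosen as Prdm9 and known partners of its protein and stand among 20722 autosomal protein-coding genes of GENCODE M21. A gene was counted as marked where a peak overlapped, by at least 1 bp, the 500 bp on either side of the transcription start site (TSS) of one of its protein-coding transcripts. Nuclei came from whole testis of adult wild-type C57Bl/6J males, with no mutant or treated group, and were sorted by DNA content and by staining for meiotic proteins into leptonema and zygonema and the later stages of pachynema (early and late) and diplonema. The 20 lists give only the start and end of each peak. Of these, 10 were H3K4me3 lists made with an EpiCypher antibody (each stage in experiments 1 and 2), 5 were H3K4me2/3 lists made with an Abcam antibody in experiment 2, and 5 were H3K9ac lists, all of experiment 1. The antibody field of the 5 H3K9ac samples names H3K4me3 with the catalogue number that the survey sample gives for H3K9ac, and these lists are called H3K9ac here after their titles.

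PRDM9 is a meiosis-specific zinc-finger methyltransferase that binds DNA and places H3K4me3 and H3K36me3 on neighboring nucleosomes, and these sites become the hotspots of meiotic double-strand breaks. HELLS is a chromatin remodeler that opens nucleosomes together with PRDM9, and ZCWPW1 reads the pair of methyl marks. CXXC1 is the CpG-binding subunit of the SET1 methyltransferase complex, EWSR1 is an RNA-binding protein of the FET family, EHMT2 (G9a) methylates H3K9, and CDYL is a chromodomain corepressor. H3K4me3 also marks the promoters of active genes, so the peaks below concern the promoters of these 7 genes and not the sites where their proteins act.

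The lists held no score or read count, and depth per sample is therefore unknown. A called peak and its width are the measurements, and a promoter without a peak can carry the mark below the calling threshold. H3K4me3 lists ran from 4883 to 15699 peaks, H3K4me2/3 lists from 17561 to 30943 and H3K9ac lists from 516 to 16003. Nuclei were sorted in bulk, so a mark on more nuclei and more mark per nucleus cannot be told apart. The purity that the study lists was highest in leptonema and lowest in zygonema experiment 2, followed by late pachynema experiment 2. Of the sorting markers, Stra8 had an H3K4me3 peak in both leptonema libraries (586 bp and 2065 bp) and in none of the other 8, and Sycp3 had one in all 10 libraries. Sycp1 had one in 8 of 10. It had none in late pachynema and diplonema of experiment 1, beside 1465 bp and 1686 bp at these stages in experiment 2. Hist1h1t, the gene of the stained protein H1t, was marked only in leptonema experiment 1 (258 bp) and zygonema experiment 2 (747 bp). Among markers of other testis cells, 0 of 5 spermatid genes and 0 of 2 peritubular genes had an H3K4me3 peak in any library, whereas 2 of 4 spermatogonial, 3 of 4 Sertoli and 1 of 4 Leydig genes had one in at least 1 library. Over all 20722 genes, 11215 had one in at least 1. No H3K4me3 list held more than 2 of the spermatogonial or 3 of the Sertoli genes, and H3K4me3 peaks at the Sertoli genes Sox9, Wt1 and Gata4 were found in leptonema or zygonema libraries only. With H3K4me2/3, Gata4 was marked in 5 of 5 lists, Zbtb16, Gfra1, Kit and Uchl1 of the spermatogonial genes in 3 to 5, Sox9 in 1 and Wt1 in 2. The spermatid gene Tnp2 and the Leydig gene Insl3 were each marked in 1 of these lists and the peritubular gene Myh11 in 2. The other spermatid, Leydig and peritubular genes were marked in none of them. The part of such cells in the results below was not tested.

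In mm10 Prdm9 spans chr17:15543079-15564354 and Ewsr1 spans chr11:5069689-5099266, both on the minus strand. On the plus strand lie Hells at chr19:38930915-38971051, Zcwpw1 at chr5:137787798-137822621, Ehmt2 at chr17:34898469-34914052 and Cdyl at chr13:35659833-35874063. The following stretches of DNA show what the lists resolved at these genes. At Prdm9 (chr17, minus strand, TSS at 15564340), the H3K4me3 peaks of all 10 libraries shared 87 bp at -369 bp to -283 bp from the TSS, upstream being negative. These 87 bases are in capitals in the following 300 bases, chr17:15564410-15564709 of mm10, minus strand, which hold no annotated exon.

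Prdm9 upstream: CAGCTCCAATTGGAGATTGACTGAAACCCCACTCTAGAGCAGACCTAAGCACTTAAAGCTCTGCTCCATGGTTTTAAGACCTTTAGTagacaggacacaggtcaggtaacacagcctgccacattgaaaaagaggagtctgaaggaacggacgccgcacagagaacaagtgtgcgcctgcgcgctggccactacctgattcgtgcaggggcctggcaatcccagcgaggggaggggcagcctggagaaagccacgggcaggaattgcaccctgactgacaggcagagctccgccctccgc

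Cdyl has 2 protein-coding TSSs. The downstream one, at 35741313, was marked in 7 of 10 H3K4me3, 5 of 5 H3K4me2/3 and 2 of 5 H3K9ac lists, and the upstream one, at 35659833 (-81480 bp), in none of the 20. The bases before each are shown with CG dinucleotides in capitals, both on the plus strand of chromosome 13 and outside annotated exons. The stretch before the marked TSS, chr13:35741152-35741312, holds 12 CG in 161 bases. It lay under the H3K4me3 peaks of leptonema and zygonema and under every H3K4me2/3 peak. The H3K4me3 peaks of the later stages and the early pachynema H3K9ac peak lay near this TSS but outside the stretch. The unmarked stretch, chr13:35659612-35659817, holds 2 in 206 bases.

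Cdyl marked: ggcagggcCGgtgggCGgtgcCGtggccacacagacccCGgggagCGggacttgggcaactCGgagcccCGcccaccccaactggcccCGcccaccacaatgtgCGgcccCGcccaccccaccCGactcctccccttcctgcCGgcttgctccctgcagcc
Cdyl unmarked: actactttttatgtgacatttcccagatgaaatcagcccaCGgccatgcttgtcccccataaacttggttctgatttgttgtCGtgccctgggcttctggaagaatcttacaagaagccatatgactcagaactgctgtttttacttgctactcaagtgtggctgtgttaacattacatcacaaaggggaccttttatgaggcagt

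In 300-base RefSeq promoter windows (250 bases before to 50 after a start, GRCm38.p6), 6 of the 7 genes were matched, with 11 windows. Cxxc1 had no window, so its promoter was not searched. CG counts ran from 3 at the unmarked Cdyl start to 40 at Ehmt2, beside a median of 7 over 32851 windows. The Ewsr1 window held 39 CG, more than 95.6% of all windows, and the Hells window held 34, more than 92.3%. The Prdm9 window at the marked TSS held 18, more than 70.3%. Motifs were searched on both strands: CNCCTCAG, the site described for STRA8, was in 7.94% of all windows, the E2F words TTCCCGCC and TTTGGCGC in 2.19% and 0.514%, the NRF1 core CGCATGCG in 1.87% and the CRE TGACGTCA in 1.79%. Among the windows of these genes, only the one at the marked Prdm9 TSS held any. It had CNCCTCAG at -41 to -34 and at 14 to 21 from the RefSeq start and TTCCCGCC at -47 to -40, so the first of these overlaps the E2F word by 2 bases. A match of letters is a description of the window and not a bound site.

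The first question was at which stages each promoter was marked with H3K4me3. All 7 promoters had a peak in all 4 leptonema and zygonema libraries (28 of 28 pairs of a gene and a library) and the count was 31 of 42 in the later libraries, for 59 of 70 in all. The background was the share of all 20722 genes with a peak in the same list: 38.7% and 46.3% in leptonema experiments 1 and 2, and 36.2% and 35.3% in zygonema. For early pachynema the share was 33.6% and 25.2%, for late pachynema 26.4% and 39.7%, and for diplonema 28.7% and 46%. Early pachynema had 6 and 3 of the 7 genes, and late pachynema and diplonema each had 4 and 7. The share of the 7 genes with a peak was thus above the background in every H3K4me3 list, although the genes were not drawn at random. Prdm9, Cxxc1 and Ewsr1 were marked in 10 of 10 libraries, Ehmt2 in 9, Hells and Cdyl in 7 and Zcwpw1 in 6. Of the 20722 genes, 3729 were marked in all 10, 9995 in at least 2 and 11215 in at least 1. All 11 missing calls fell in the 4 shortest lists, early pachynema experiment 2 (4883 peaks), late pachynema experiment 1 (5189), diplonema experiment 1 (6645) and early pachynema experiment 1 (6647). With every list cut to equally many of its widest peaks, 61.4% of the 70 pairs had a call, against 84.3% in the full lists. Prdm9 was then called in 60% of libraries, Cxxc1 in 70%, Ehmt2 in 80%, Hells in 40%, Cdyl in 50%, Zcwpw1 in 30% and Ewsr1 in 100%. Under this cut 7294 of all genes had a peak in at least 2 libraries, against 9995 in the full lists.

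**Figure D1:**
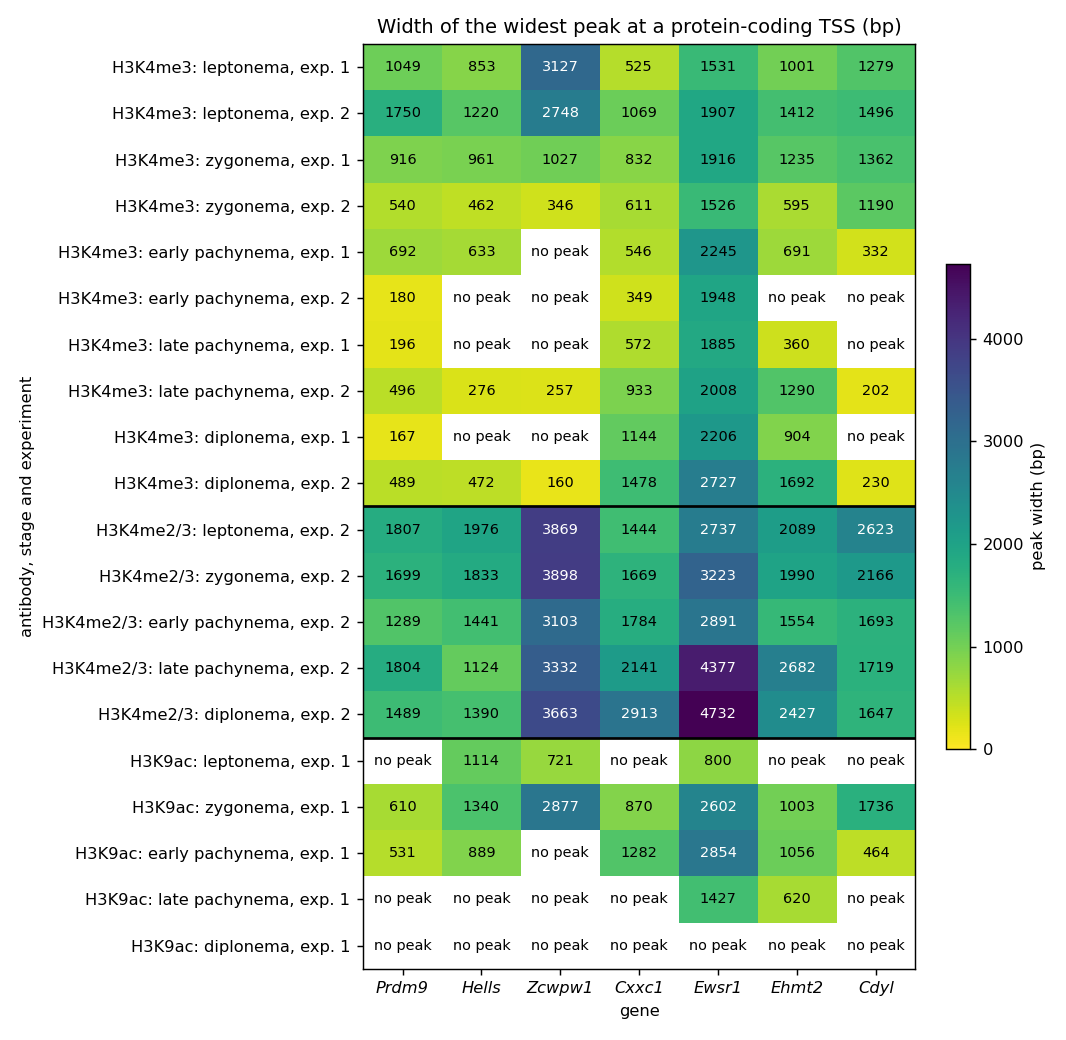
Width in bp of the widest peak at a protein-coding TSS for 7 genes (columns) in 20 peak lists (rows, grouped by antibody, then by stage and experiment), with color from 0 bp to 4732 bp and white cells for no peak. With H3K4me3, Zcwpw1 goes from 3127 bp and 2748 bp in leptonema to no peak in either early pachynema library. Ewsr1 stays between 1526 bp and 2727 bp in all H3K4me3 rows.

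The writer itself, Prdm9, had a called peak in every library, which was narrower and lay further upstream in most later ones. Its H3K4me3 width was 1049 bp and 1750 bp in leptonema, 916 bp and 540 bp in zygonema, 692 bp and 180 bp in early pachynema, 196 bp and 496 bp in late pachynema and 167 bp and 489 bp in diplonema. Leptonema was the widest stage at 1399.5 bp ± 496 (SD, n = 2), followed by zygonema at 728 bp ± 266. The means of early pachynema (436 bp ± 362), late pachynema (346 bp ± 212) and diplonema (328 bp ± 228) differed by less than their SDs. The range of the 4 leptonema and zygonema values (540 bp to 1750 bp) and that of the 6 later ones (167 bp to 692 bp) overlapped, through early pachynema experiment 1. Over the TSS itself, the peak lay across position 0 in all 4 leptonema and zygonema libraries and in early pachynema experiment 1. In the other 5 later libraries the peak ended upstream of the TSS, between -283 bp and -96 bp. With a peak required to cover at least 0.5 of a TSS window, Prdm9 was marked in 50% of the H3K4me3 libraries, and with only the peaks at or above the median width of each list in 40%. Under these settings 7362 and 6795 of all genes had a peak in at least 2 libraries, against 9995 without them. The 2 other annotated coding starts of Prdm9, 1017 bp and 1039 bp downstream, had a peak within 500 bp in 2 of 10 H3K4me3 lists, both of leptonema.

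**Figure D2:**
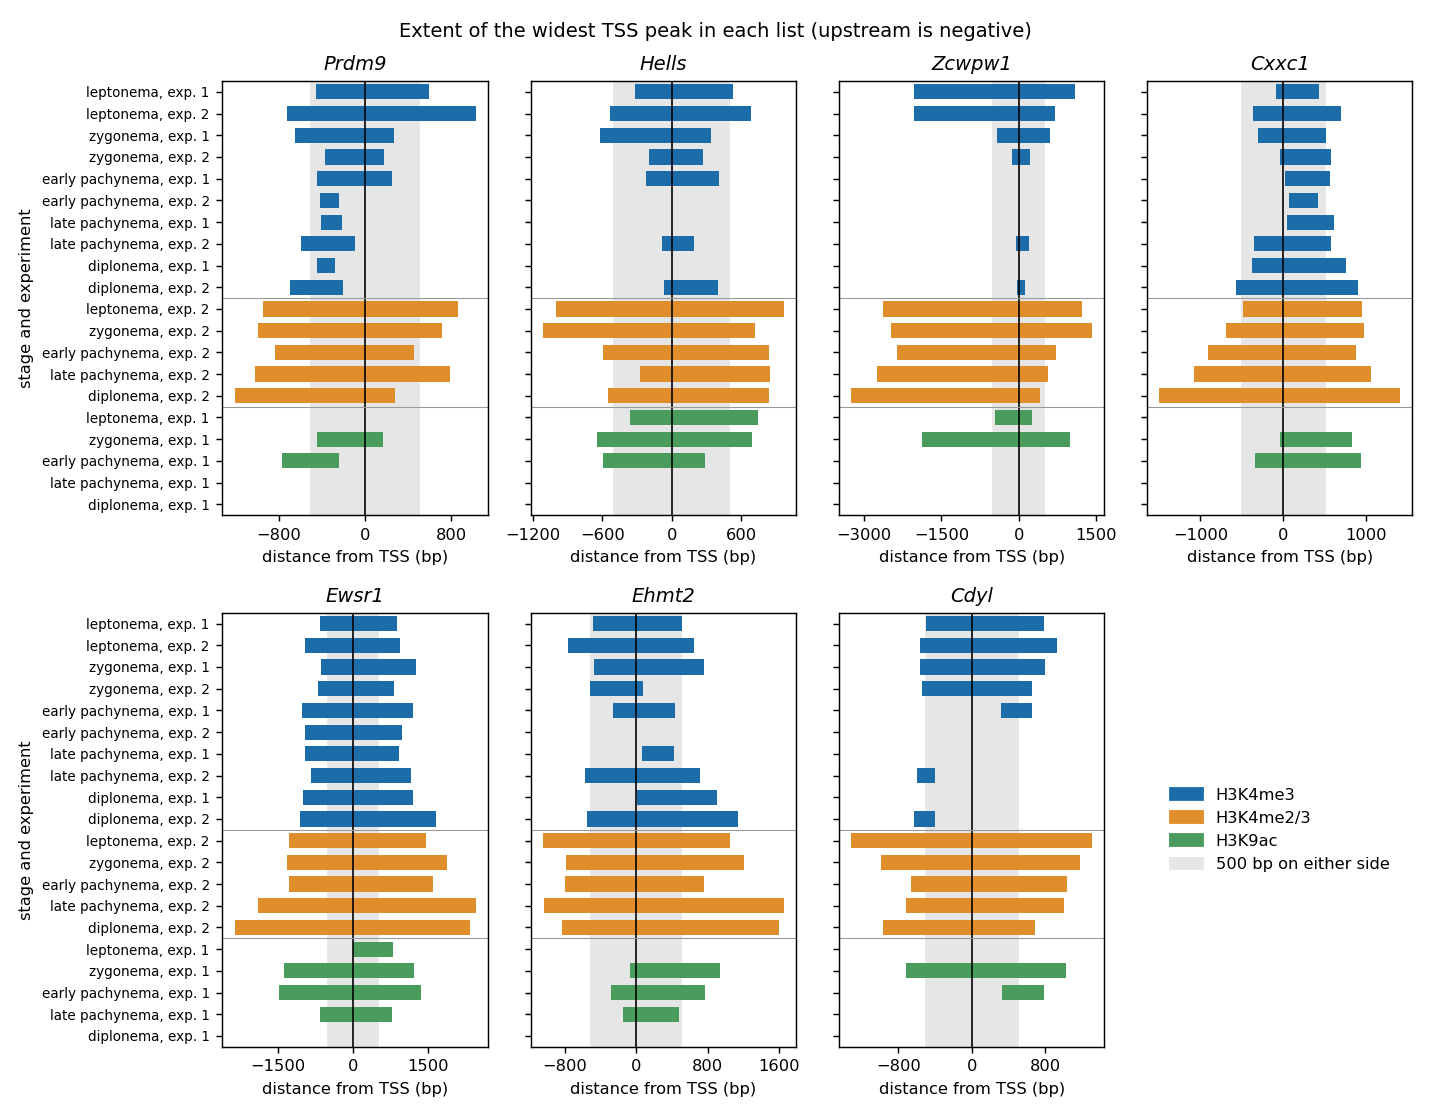
Extent of the widest TSS peak in each list (rows by stage and experiment) as distance in bp from the reference TSS of each gene, upstream negative, with bars colored by antibody and 500 bp on either side in gray. At Prdm9 the H3K4me3 bars of 5 of the 6 later libraries lie wholly upstream of the TSS, the nearest ending at -96 bp, whereas the Ewsr1 bars cover the TSS in all 10.

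The width rank was used to compare libraries: the percentage of all 20722 genes whose widest TSS peak in the same list was narrower, or 0 where there was no peak. It still depends on list length, since a called peak ranks at least at the share of genes without one. Prdm9 ranked at 77.2% with 180 bp in early pachynema experiment 2 and at 64.2% with 489 bp in diplonema experiment 2. A lost call takes a gene to 0, and all 11 missing calls of the 7 genes fell in the 4 shortest lists, all of later stages. Leptonema and zygonema (4 libraries) were compared with the 3 later stages (6 libraries) by a two-sided exact permutation test over all 210 assignments, for 9995 genes with a peak in at least 2 of the 10 H3K4me3 libraries. After Benjamini-Hochberg adjustment, 0 genes passed 0.05 by the permutation test in either direction (smallest adjusted p = 0.0726), since the smallest p that 210 assignments allow, 0.00476, was reached by 656 genes. At an unadjusted p under 0.05, 1077 genes (10.8%) ranked higher in leptonema and zygonema and 1132 genes (11.3%) ranked higher later. All 7 genes were tested, and 4 of them were among the former and 1, Ewsr1, among the latter. Their median difference was 16.0 percentage points, beside 3.06 over all genes tested. With limma on log2(width + 100 bp), 373 genes (3.73%) were wider in leptonema and zygonema and 60 were wider later at an adjusted p of 0.05. Cdyl and Zcwpw1 were the 2 of the 7 genes that passed, both wider early. On this scale the median of all genes was itself shifted by 0.34 toward leptonema and zygonema.

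Prdm9 ranked at 89.7% ± 6.47 (SD, n = 4) in leptonema and zygonema and at 75.2% ± 7.76 (n = 6) later. The difference of 14.45 points had an exact permutation p of 0.0238 and an adjusted p of 0.171. It had the same sign within both experiments, at 12.4 points in experiment 1 and 16.5 in experiment 2. The mean rank was lower at each stage than at the one before, from 94.3% ± 2.08 (n = 2) in leptonema to 68.0% ± 5.37 in diplonema, and the neighbors zygonema (85.1% ± 6.04) and early pachynema (82.6% ± 7.66) did not differ beyond their spread. With every list cut to its widest peaks, equally many per list, the difference was 29.3 points (adjusted p = 0.394 by the exact permutation test). It was 26.1 points with a window of 250 bp, 54.8 points with peaks at or above the median width of each list and 75.4 points with a peak required to cover 0.5 of the window (adjusted p = 0.297, 0.366 and 0.116).

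Hells, the remodeler, was marked in all 4 early libraries and in 3 of the 6 later ones. In leptonema its width was 853 bp and 1220 bp, with 961 bp and 462 bp in zygonema. Early pachynema experiment 1 gave 633 bp, late pachynema experiment 2 gave 276 bp, diplonema experiment 2 gave 472 bp, and the other 3 later libraries had no peak. Each later stage thus had a peak in 1 of its 2 libraries, and the groups overlapped in width. The rank was 86.1% ± 6.08 early and 35.95% ± 40.2 later, a difference of 50.1 points (exact permutation p = 0.0429, adjusted p = 0.206). Within experiments the difference was 60.5 and 39.7 points, and with equal list lengths it was 52.4.

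Zcwpw1, the reader of the PRDM9 marks, had the widest leptonema peaks of the 7 genes and the most missing calls later. In leptonema its width was 3127 bp and 2748 bp, with 1027 bp and 346 bp in zygonema. There was no peak in either early pachynema library, in late pachynema experiment 1 or in diplonema experiment 1. Late pachynema experiment 2 had 257 bp and diplonema experiment 2 had 160 bp. All 4 early values stood above all 6 later ones, as they did for 6.14% of the genes tested, and all 4 stood below for 1.23%. The rank was 90.8% ± 13.1 early and 20.0% ± 31.1 later, a difference of 70.8 points (exact permutation p = 0.00952, adjusted p = 0.0986). It was 96.0 points within experiment 1, where no later library had a peak, 45.7 within experiment 2 and 72.8 with equal list lengths. In limma the difference was 3.34 on the log2 scale with an adjusted p of 0.0101. The width at Zcwpw1 was not its own alone. The gene lies head to head with Mepce, the gene of the enzyme that caps 7SK RNA, whose nearest coding start is at -143 bp. Both leptonema peaks covered the starts of both genes and began at -2033 bp and -2034 bp from the Zcwpw1 TSS. From zygonema on, a separate peak stood on the Mepce side in all 8 libraries, including the 4 in which Zcwpw1 had none (774 bp, 648 bp, 209 bp and 206 bp). Mepce was thus marked in all 10 libraries. The other coding start of Zcwpw1, 23031 bp downstream, had no peak in any of the 20 lists.

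**Figure D3:**
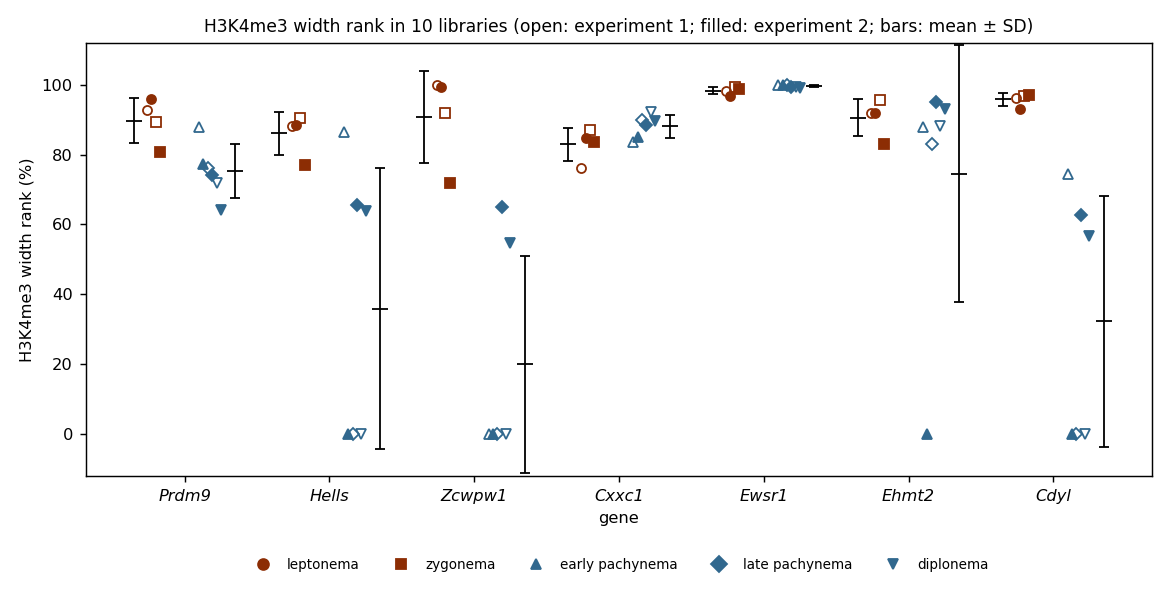
H3K4me3 width rank (percentage of 20722 genes with a narrower or no TSS peak in the same list) of each gene in 10 libraries, red for leptonema and zygonema and blue for later stages, open for experiment 1 and filled for experiment 2, with mean ± SD bars (n = 4 and n = 6). Zcwpw1 and Cdyl have no overlap between the colors, and Ewsr1 lies above 96% in every library.

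Cxxc1 and Ewsr1 were marked in every H3K4me3 library, and both had the higher mean rank in the later stages. Cxxc1 lies on the plus strand at chr18:74216124-74221496. The Cxxc1 width was 525 bp and 1069 bp in leptonema, 832 bp and 611 bp in zygonema, 546 bp and 349 bp in early pachynema, 572 bp and 933 bp in late pachynema and 1144 bp and 1478 bp in diplonema. Diplonema (1311 bp ± 236, n = 2) held the widest peaks and early pachynema (447.5 bp ± 139) the narrowest, and the groups overlapped. The median width at all marked genes was likewise largest in a diplonema list (938 bp, experiment 2) and smallest in an early pachynema list (402 bp, experiment 2). The rank of Cxxc1 was 82.9% ± 4.62 early and 88.1% ± 3.27 later, and the difference of -5.21 points gave an exact permutation p of 0.0571 and an adjusted p of 0.238. With the peak required to cover at least 0.5 of the window the difference was 38.5 points in the other direction, and it was -66.9 points with equal list lengths (adjusted p = 0.458 and 0.0916 by the exact permutation test). It was -10.1 points with peaks at or above the median width and -3.00 points without leptonema experiment 1.

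Ewsr1 had one of the widest promoter peaks of the genome at every stage. Its width was 1531 bp and 1907 bp in leptonema, 1916 bp and 1526 bp in zygonema, 2245 bp and 1948 bp in early pachynema, 1885 bp and 2008 bp in late pachynema and 2206 bp and 2727 bp in diplonema. Its lowest rank was 96.8%, in leptonema experiment 2, and its highest 99.9%, in early pachynema experiment 2. The rank differed by only -1.30 points between the groups, 98.3% ± 1.06 early and 99.6% ± 0.333 later, with an exact permutation p of 0.0143 and an adjusted p of 0.126. Without leptonema experiment 2 it was -0.821 points. In limma the width difference was -0.32 on the log2 scale (adjusted p = 0.494). In all 10 libraries the peak also came within 500 bp of every coding start of Rhbdd3, which is read in the opposite direction and has such starts from 340 bp downstream of the Ewsr1 TSS to -904 bp. The peak cannot be divided between these genes. The bases shared by all 10 peaks spanned 1466 bp, beside 87 bp at Prdm9 and 349 bp at Cxxc1.

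The H3K9 methyltransferase Ehmt2 was marked in all libraries but 1, and the corepressor Cdyl in all early and 3 later ones. In leptonema Ehmt2 was 1001 bp and 1412 bp wide, with 1235 bp and 595 bp in zygonema. It was 691 bp wide in early pachynema experiment 1, where experiment 2 had no peak, 360 bp and 1290 bp in late pachynema and 904 bp and 1692 bp in diplonema. The groups overlapped and the rank difference of 16.0 points was far from the threshold (exact permutation p = 0.629, adjusted p = 0.8). Without early pachynema experiment 2 it was 1.11 points, and with equal list lengths it was -4.72 points. It was 29.9 points with peaks at or above the median width or covering 0.5 of the window. The Ehmt2 peak came within 500 bp of the start of a noncoding transcript of the neighbor C2, at -689 bp, in 7 of 10 H3K4me3 lists. Of the 6 coding starts of Ehmt2, the 2 most downstream, at 7048 bp and 8446 bp, had no peak in any list.

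Cdyl had a width rank of at least 93.0% in all 4 early libraries, with genes without a peak counted, and had at most 332 bp in the later ones. In leptonema its width was 1279 bp and 1496 bp, with 1362 bp and 1190 bp in zygonema. Early pachynema experiment 1 had 332 bp, late pachynema experiment 2 had 202 bp, diplonema experiment 2 had 230 bp, and the other 3 later libraries had none. All early values stood above all later ones, as for Zcwpw1. The rank was 95.8% ± 1.84 early and 32.3% ± 35.9 later, a difference of 63.4 points (exact permutation p = 0.019, adjusted p = 0.148). It was 71.7 and 55.1 points within experiments 1 and 2 and 83.4 points with equal list lengths. With a window of 250 bp, or with peaks covering 0.5 of the window or at or above the median width, it was 95.8 to 95.9 points. In limma the difference was 2.93 on the log2 scale with an adjusted p of 0.00558. The 3 later peaks did not lie in the same place. The early pachynema one ran from 317 bp to 648 bp downstream of the TSS, and those of late pachynema and diplonema ended upstream of it, at -399 bp and -400 bp. None of the 3 covered the TSS, and Cdyl was marked in 40% of the libraries with a window of 250 bp.

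Cdyl was also the only one of the 7 genes with H3K4me3 peaks inside its span and away from every annotated TSS. Counting all antibodies there were 6 such sites, all in introns and all found in leptonema or zygonema lists only, and 3 of them were marked in both zygonema H3K4me3 libraries and in no later library. Over all genes, 7.03% had at least 1 site of this kind. Among the 2364 genes that span 100000 bp or more, as Cdyl does with 214231 bp, 31.8% had at least 1 and 2.24% had 3 or more. The pattern in Cdyl was noticed before this share was taken and no test was made. Site 1 was 737 bp and 201 bp wide in the zygonema H3K4me3 libraries, 802 bp with H3K4me2/3 and 646 bp with H3K9ac. Site 2 was 1120 bp and 512 bp wide, with 1069 bp and 1201 bp for the other 2 antibodies. Site 4, which began 95845 bp downstream of the TSS, was the one of these 3 also marked in leptonema. It had 828 bp and 525 bp there, 1338 bp and 1286 bp in zygonema, and H3K4me2/3 peaks of 1290 bp and 1442 bp at these stages. The 150 bases at the middle of the stretch shared by the H3K4me3 peaks of sites 1, 2 and 4 are given to show how CG-poor they are beside the marked promoter, with CG in capitals. They are chr13:35782319-35782468 with 3 CG, chr13:35823760-35823909 with 1 and chr13:35838130-35838279 with 1, all plus strand of mm10.

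Cdyl site 1: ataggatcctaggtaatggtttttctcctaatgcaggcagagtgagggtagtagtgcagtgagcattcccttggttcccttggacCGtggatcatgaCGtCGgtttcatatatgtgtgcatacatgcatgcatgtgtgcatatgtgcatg
Cdyl site 2: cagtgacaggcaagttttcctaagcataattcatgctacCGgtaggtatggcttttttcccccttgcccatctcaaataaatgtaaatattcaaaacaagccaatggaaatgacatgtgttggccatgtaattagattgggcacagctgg
Cdyl site 4: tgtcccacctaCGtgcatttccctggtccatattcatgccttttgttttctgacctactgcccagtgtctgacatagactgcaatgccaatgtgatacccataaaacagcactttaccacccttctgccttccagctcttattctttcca

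**Figure D4:**
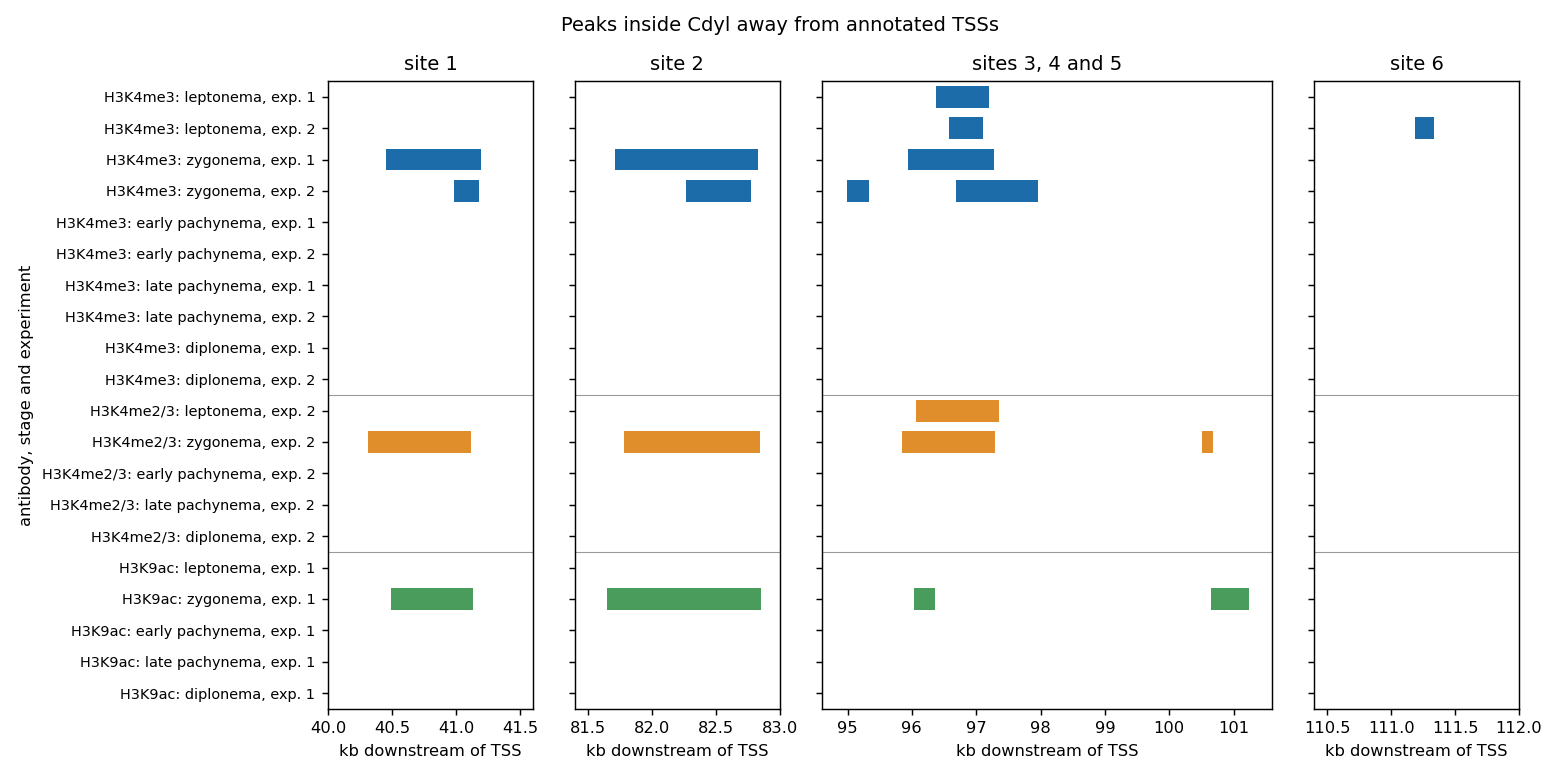
Extent of each peak inside Cdyl and away from annotated TSSs, in kb downstream of the marked Cdyl TSS, for 20 lists (rows) colored by antibody. All bars lie in leptonema or zygonema rows, with sites 1, 2 and 4 in both zygonema H3K4me3 libraries, and the rows of the 3 later stages hold none.

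Other partners and paralogs, and meiotic axis genes, were taken for comparison. Zcwpw2 has no protein-coding TSS in GENCODE M21 and was not measured. Of the 14 genes that were measured, 11 had an H3K4me3 peak in at least 1 library and 5 had one in all 10. These 5 were Setd1a, Ash2l and Wdr5 of the SET1 methyltransferase complex, Taf15, a FET protein, and the axis gene Sycp3. Over all 20722 genes these counts were 11215 and 3729. Ccdc36 had no TSS peak in the lists used here. Rec8, the meiotic cohesin subunit, had none with H3K4me3 but had one in 4 of 5 H3K4me2/3 lists. At an unadjusted exact permutation p under 0.05, 0 of the 11 tested ranked higher early, and 1, Wdr5, ranked higher later (-13.99 points, p = 0.0143, adjusted p = 0.126). Their median difference was 2.49 points. The HELLS partner Cdca7 and the EHMT2 partner Ehmt1 had differences of 32.8 and 36.01 points with exact permutation p of 0.19 and 0.157, and both were marked in all 4 early and 4 of 6 later libraries.

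The next question was how the Abcam antibody, labelled H3K4me2/3, compared with the EpiCypher antibody in the same experiment. All 7 promoters had an H3K4me2/3 peak at all 5 stages, including the 4 pairs without an H3K4me3 peak, all of early pachynema. For that stage, unlike the other 4, the study lists different purity and chromatin amounts for these libraries of experiment 2, so antibody and sorted material cannot be told apart there. In the same lists a peak was called at 64.7% of all genes in leptonema and 59.4% in zygonema, and later at 53.7% and 55.4% in early and late pachynema and at 53.3% in diplonema. In the 31 pairs called with both antibodies, the H3K4me2/3 peak was the wider one every time, by a ratio of 1.033 to 22.89 and a median of 2.30. Over all genes called with both, the median ratio lay between 1.83 in leptonema and 3.55 in early pachynema, so the direction was common to the genome. With 5 stages the exact sign-flip test cannot give a p under 0.062, which each of the 7 genes reached.

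With this antibody every promoter had a peak at least 1124 bp wide. Prdm9 was 1807 bp wide in leptonema and 1699 bp in zygonema, then 1289 bp and 1804 bp in early and late pachynema and 1489 bp in diplonema, and the peak covered the TSS at all 5 stages. Zcwpw1 ran from 3869 bp in leptonema to 3663 bp in diplonema with a lowest value of 3103 bp in early pachynema, and these peaks covered the Mepce starts at every stage. Cdyl was 2623 bp and 2166 bp wide in leptonema and zygonema and 1693 bp, 1719 bp and 1647 bp wide later, and Hells had 1976 bp in leptonema and a low of 1124 bp in late pachynema. Ewsr1 was 2737 bp in leptonema and 4732 bp in diplonema, and Cxxc1 was wider at each stage than at the one before, from 1444 bp to 2913 bp. The median width at all marked genes also moved, at 1437 bp, 1320 bp, 1255 bp, 1751.5 bp and 1858 bp from leptonema to diplonema. By rank Cxxc1 did not rise at every stage, with 89.5% in early and 80.1% in late pachynema. There was 1 library per stage, so these courses have no replicate. The rank of Prdm9 with this antibody went from 81.3% in leptonema and 83.7% in zygonema to 66.8% in diplonema.

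**Figure D5:**
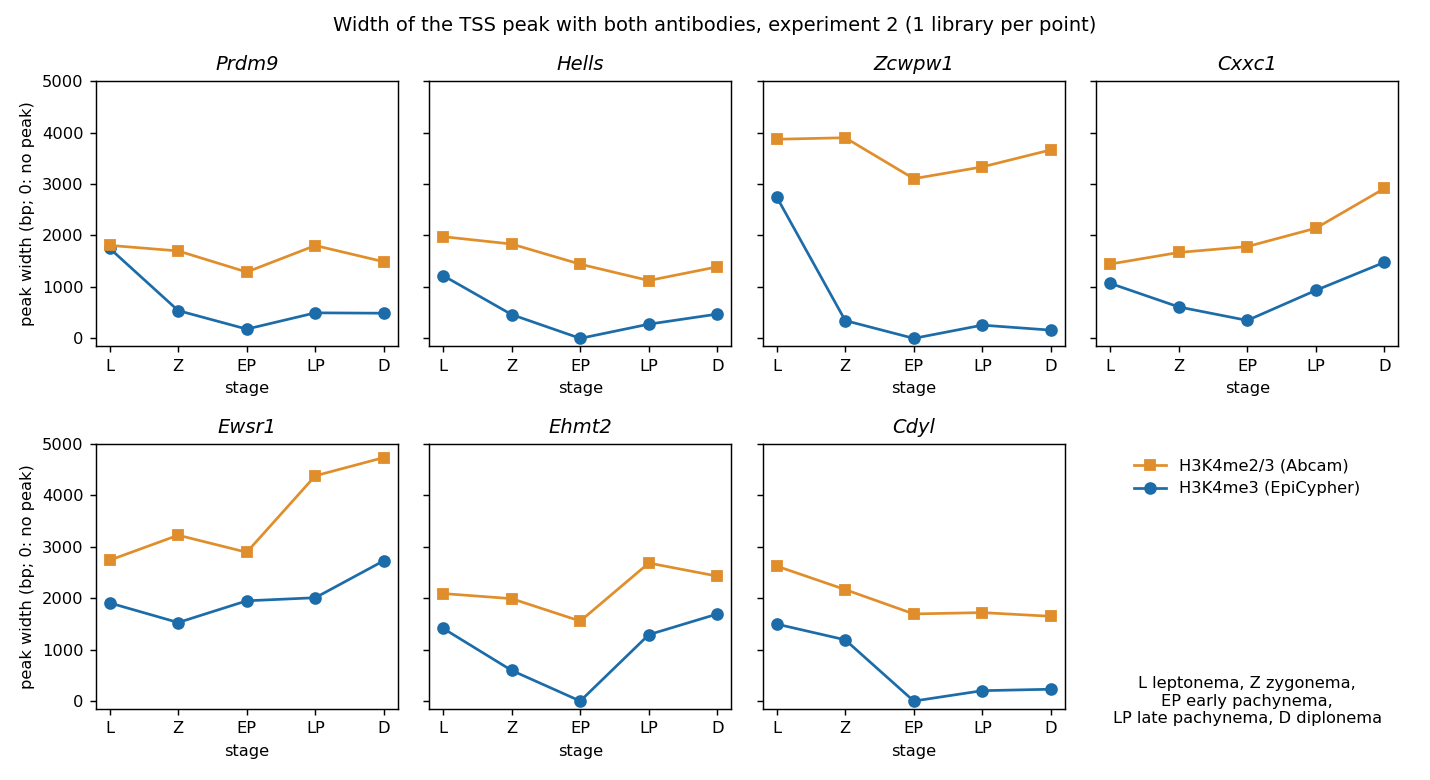
Width in bp of the TSS peak of each gene with the Abcam (orange squares) and EpiCypher (blue circles) antibodies at 5 stages of experiment 2, 1 library per point, with 0 where no peak was called. The orange values are above the blue ones in all 35 pairs, by as little as 57 bp at Prdm9 in leptonema.

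H3K9ac, a mark of active promoters, was compared with H3K4me3 in experiment 1 to ask whether the marks were called together. The 7 genes had 18 H3K9ac calls in 35 pairs, and each fell at a stage with an H3K4me3 call, while 10 H3K4me3 calls had no H3K9ac peak. The matching overlap over all genes is not given here, so whether it is particular to these 7 was not tested. Leptonema had 3 calls of 7 and zygonema had 7, while early pachynema had 6, late pachynema 2 and diplonema 0. The background in the same lists was 14.8%, 41.1%, 35.3%, 8.27% and 1.99% of genes, and the diplonema list held only 516 peaks. The marked genes in leptonema were Hells (1114 bp), Zcwpw1 (721 bp) and Ewsr1 (800 bp), and those in late pachynema were Ewsr1 (1427 bp) and Ehmt2 (620 bp). H3K9ac was called in 51.4% of pairs, and in 22.9% with equal list lengths.

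Prdm9 had no H3K9ac peak in leptonema, where its H3K4me3 peak was 1049 bp wide and ranked at 92.8%. Its H3K9ac peaks were 610 bp in zygonema and 531 bp in early pachynema, narrower than those of H3K4me3 in both (916 bp and 692 bp). With no peak counted as 0, Prdm9 was the one gene of the 7 with the lower H3K9ac width at all 5 stages (mean difference -375.8 bp ± 381, n = 5). This was at the smallest p the exact sign-flip test allows (p = 0.062). In leptonema, late pachynema and diplonema the difference was a missing H3K9ac call, in lists that marked 14.8%, 8.27% and 1.99% of genes. Hells, Zcwpw1 and Cdyl had no peak of either mark at 2, 3 and 2 stages, so they could not be lower at all 5. The early pachynema H3K9ac peak lay upstream of the TSS, at -772 bp to -242 bp. Where both marks were called, the H3K9ac peak was wider in 12 of 18 pairs over the 7 genes, with a median ratio of 1.29, and over all genes called with both the median ratio was 1.47 in zygonema and 1.31 in early pachynema. At the other stages it was below 1 over all genes, at 0.551 in leptonema, 0.591 in late pachynema and 0.269 in diplonema. The Hells H3K9ac peak was wider than its H3K4me3 peak in the 3 pairs called with both. Zcwpw1 had the widest H3K9ac peak of the 7 in zygonema, 2877 bp, which covered the Mepce starts, beside an H3K4me3 peak of 1027 bp.

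Genes with the most similar widths to each of the 7 were found by the mean absolute difference of width rank over the 20 lists, leaving out genes under the same peak. For Prdm9 the closest 5 were Sacm1l (3.86 points), Zfp62 (4.12), Eps15l1 (4.67), Usp28 (4.89) and Hspbp1 (5.13). For the others the closest was Pak1 for Hells (3.15), Foxo3 for Zcwpw1 (3.04), Larp7 for Cxxc1 (3.56), Zbtb10 for Ewsr1 (0.598), Mboat2 for Ehmt2 (4.84) and the mismatch repair gene Msh3 for Cdyl (2.93). Of the pairs among the 7 genes, the closest was Prdm9 and Cxxc1 at 10.2 points, with 672 of the 20722 genes closer to Prdm9 and 1158 closer to Cxxc1. Hells and Cdyl followed at 11.0 points, with 220 closer to Cdyl and 242 closer to Hells. From Zcwpw1, Hells was at 16.8 points with 163 genes closer, and Cdyl at 18.2 points with 254 genes closer. Seen from the other gene of each pair, 983 genes were closer to Hells and 1360 closer to Cdyl than Zcwpw1 was. The distance from Prdm9 was 20.7 points to Hells, 33.3 to Zcwpw1, 27.2 to Ewsr1, 17.1 to Ehmt2 and 17.9 to Cdyl. These are descriptions over 20 lists that share genes and libraries.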

How the data were processed

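ChIP-Seq peak lists of sorted spermatocyte nuclei were used, 1 list per library and 20 of 51 samples. The other 31 samples were not analysed here. The authors aligned reads to mm10 with BWA mem 0.7.12 and called broad peaks with MACS2 2.1.2 (q threshold 0.1) against input of the same stage. This is stated for H3K4me3, and for H3K9ac the control is not given in the sources used here. The deposited lists give peak start and end on chromosomes 1 to 19, with no other score. Per the labels deepTools 3.0.1 was also used. No peak passed a chromosome end of GRCm38.p6.

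Widths at protein-coding TSSs (GENCODE M21), exact permutation tests, sign-flip tests and Benjamini-Hochberg adjustment were computed with Python 3.11.15 and numpy 2.4.6, and limma 3.58.1 (R 4.3.3) was the alternative. The labels number the libraries of a stage as experiments, and p-values measure only the spread between these libraries. The test was checked on simulated widths with the same cut and the same typical width in every library. The check therefore does not cover lists of different length. The 7 genes, the context genes and the markers were chosen with earlier results of these data known. Named genes were the 7, the context genes, the most similar genes by width rank and any coding neighbor under the same peak. The values of 1 context gene are not reported here. Sequences came from the GRCm38.p6 genome and RefSeq promoter windows. Alternatives were other windows, overlaps, peak filters, equal list lengths, all transcripts, joined peaks, each library left out, a replicate block, width in bp and limma.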

Additional observations from a re-analysis of the deposited data

Results flagged for a closer look

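Libraries far from the others of their group were sought by Dixon's ratio in 28 groups of widths or width ranks, and 2 were found, where chance gives about 1 in 20 groups. The Ehmt2 H3K4me3 width rank in early pachynema experiment 2 was 0, with no peak, beside a range of 83.1% to 95.0% in the other 5 later libraries (gap over range 0.875). The Cdyl rank in leptonema experiment 2 was 93.0%, beside at least 96.3% in the other 3 early libraries (gap over range 0.838), although its width of 1496 bp was the largest of the 4.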

How the results depend on the processing

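The lists carry no depth, so a missing peak cannot be told from a weak one, and 2 libraries per stage limit every comparison between stages. By the permutation test 0 genes passed 0.05 under every alternative run, with 1026 to 2258 genes at an unadjusted p under 0.05. With limma on log2(width + 100 bp), 373 genes were wider in leptonema and zygonema and 60 later. The direction of the early minus later difference held for Prdm9, Hells, Zcwpw1, Ewsr1 and Cdyl under every alternative, with adjusted p from 0.107 to 0.394 for Prdm9. It turned for Cxxc1 with a peak required to cover 0.5 of the window (38.5 points) and for Ehmt2 with lists cut to equally many of their widest peaks (-4.72 points). That setting also took H3K9ac calls from 51.4% of pairs to 22.9%, as it keeps 516 peaks per H3K9ac list. The share of H3K4me3 calls was 84.3%, with 61.4% at equal list lengths, 58.6% under the stricter overlap and the stricter width and 82.5% to 88.9% without 1 library. The H3K4me2/3 peak was wider in 100% of pairs in all settings. Joining peaks within 500 bp changed nothing, as the smallest gap within a list was 605 bp. With the replicate block (experiment as block, 100 assignments), 0 genes passed in either direction and 4 of the 7 genes had an unadjusted p under 0.05, against 5 without it. Correlations of the deviations were taken to see whether the experiment number pairs the libraries. They ran from -0.13 to 0.37 over 10 pairs of stages, with 4 above 0.1. With 2 libraries per stage they cannot decide this.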
